A study of Mus musculus with 4 samples.

Results

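The genes described here encode the machinery that copies DNA in S phase, together with the enzymes that supply its nucleotides and the cyclins and E2F factors that start it. They were taken by symbol from the deposited table of estimated counts: 46 symbols were looked up, all 46 were found, and the whole table holds 25509 genes. All 46 passed the filter on low counts, and the list is defined by function, with no measured value in its rule. RNA was sequenced from mouse T cells of 2 genotypes, with 2 libraries from Batf3-/- cells and 2 from WT cells. Batf3 encodes a leucine zipper protein that pairs with JUN proteins at AP-1 sites. Both genotypes started as naive splenic CD4+ T cells (CD25-negative, CD62L-high and CD44-low in the sort) and were then cultured with TGFb, IL-4 and TL1A (also spelled TLA1 in the labels) while antibodies stimulated CD3 and CD28, for 72 h in all. The labels call this a Th9 condition, a culture for helper T cells that make interleukin 9. They give neither the exons missing from the Batf3 allele nor the age or number of mice, and leave unstated whether the replicates are different animals; the p-values measure the spread between these libraries.

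Resting T cells hold few of these transcripts, and stimulation through the antigen receptor and CD28 drives the cells into division. Cyclin-dependent kinases, cyclin E among the cyclins, inactivate the RB proteins, which frees E2F factors to switch on genes for origin licensing, DNA synthesis and nucleotide supply. Licensing loads the MCM helicase onto origins with the help of ORC, CDC6 and CDT1. Addition of CDC45 and GINS activates the helicase, after which primase, polymerases, the PCNA clamp and its RFC loader copy the strands. The comparison of Batf3-/- with WT cells asks here whether this program differed once the cells had been in TH9 culture without BATF3.

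Since many of these genes are known E2F targets, their promoters were searched for E2F letters. RefSeq windows running from 250 bases before to 50 bases after a gene start (build GRCm38.p6) were found for 38 of the 46 genes, in 45 windows; Gins1, Gins2, Gins4, Prim2, Pole, Rfc2, Ccne2 and Mcm4 had none. The E2F letters TTTNNCGC, with C or G at each N and counted on either strand, occurred in 16 of the 38 genes (42.1%). They occurred in 4.8% of the 9162 tested genes with a window and in 2.6% of all 27025 genes of the promoter table. The NF-Y letters CCAAT, also on either strand, were found in 24 of the 38 (63.2%), against 43.1% of tested genes. The AP-1 letters TGANTCA, the kind of site that BATF proteins bind with JUN partners, were in the windows of 0 of the 38 genes, against 5.81% of tested genes. A match is a run of letters and not a measured binding site, and a missing match says only that these letters are not in this window.

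Promoters of 5 genes are printed 5′ to 3′ along the gene, with the E2F letters in capitals. Mcm6 is shown because its window holds the most matches, 3, of which the first pair overlap; Pold1 and E2f2 (the one of its 2 windows with the letters) because they had the highest log2 fold changes of the 46; Pole2 because it had the lowest among genes with the letters; and Dtl because it is the member nearest to Batf3. In Pold1 and Pole2 the capitals spell the letters of the other strand.
Mcm6, chr1:128359656-128359955, minus strand: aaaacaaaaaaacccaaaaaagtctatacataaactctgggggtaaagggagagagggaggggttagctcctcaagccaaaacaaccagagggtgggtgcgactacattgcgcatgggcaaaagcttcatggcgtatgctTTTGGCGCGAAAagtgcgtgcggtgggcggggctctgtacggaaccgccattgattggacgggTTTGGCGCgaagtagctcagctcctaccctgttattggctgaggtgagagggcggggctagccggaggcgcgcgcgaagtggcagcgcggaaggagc
Pold1, chr7:44548766-44549065, minus strand: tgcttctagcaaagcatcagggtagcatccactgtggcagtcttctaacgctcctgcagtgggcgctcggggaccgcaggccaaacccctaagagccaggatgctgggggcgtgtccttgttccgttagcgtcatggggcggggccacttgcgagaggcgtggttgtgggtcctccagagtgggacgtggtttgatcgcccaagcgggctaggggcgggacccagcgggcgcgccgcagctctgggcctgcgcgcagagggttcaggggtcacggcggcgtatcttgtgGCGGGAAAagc
E2f2, chr4:136172024-136172323, plus strand: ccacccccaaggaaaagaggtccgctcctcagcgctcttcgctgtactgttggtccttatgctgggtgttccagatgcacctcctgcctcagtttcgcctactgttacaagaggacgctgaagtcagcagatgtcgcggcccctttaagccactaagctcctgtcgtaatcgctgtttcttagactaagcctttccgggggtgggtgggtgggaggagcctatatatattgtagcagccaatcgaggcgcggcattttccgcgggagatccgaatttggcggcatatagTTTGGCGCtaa
Pole2, chr12:69228141-69228440, minus strand: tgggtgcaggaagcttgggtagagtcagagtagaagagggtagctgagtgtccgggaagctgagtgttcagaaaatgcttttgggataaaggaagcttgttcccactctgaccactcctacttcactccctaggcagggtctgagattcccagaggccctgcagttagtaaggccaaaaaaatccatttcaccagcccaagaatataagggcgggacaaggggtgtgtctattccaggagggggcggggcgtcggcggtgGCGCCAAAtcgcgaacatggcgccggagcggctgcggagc
Dtl, chr1:191575495-191575794, minus strand: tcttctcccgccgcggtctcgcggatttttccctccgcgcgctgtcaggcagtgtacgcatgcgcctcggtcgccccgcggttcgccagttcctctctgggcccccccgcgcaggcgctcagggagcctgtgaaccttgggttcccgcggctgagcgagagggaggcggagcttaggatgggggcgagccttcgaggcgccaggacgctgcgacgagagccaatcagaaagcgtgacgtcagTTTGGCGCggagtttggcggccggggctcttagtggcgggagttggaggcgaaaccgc

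Batf3 itself had 17 and 8 counts in the Batf3-/- libraries, against 1439 and 1661 in the WT libraries, so the labels of all 4 libraries fit their RNA. Total counts were 31098059 and 15624874 in Batf3-/- replicates 1 and 2, against 23754946 and 27285811 in WT replicates 1 and 2. The 8 T cell markers examined summed to 2541 and 2577 CPM (read counts scaled to library size with TMM factors) in Batf3-/- cells, against 2635 and 2365 CPM in WT cells. Dendritic cell markers summed to 6.77 and 5.88 CPM in Batf3-/- cells, against 9.09 and 6.82 CPM in WT cells, and CD8 T cell markers to 7.43 and 7.31 CPM in Batf3-/- cells, against 9.09 and 8.49 CPM in WT cells; WT replicate 1 was highest for both. NK cell markers were at 0 in all 4 libraries, as were 2 of 6 myeloid markers, Lyz2 among them, and the 6 summed to 0.262 to 0.645 CPM per library. The part of these cells in the results was not tested. WT replicate 1 stood apart from the others: its log2 CPM correlated with theirs at 0.971 to 0.976, against 0.981 to 0.982 among the remaining libraries. Xist, the RNA of the inactive X chromosome, was at 0.0944 and 144 CPM in Batf3-/- replicates 1 and 2, against 0.214 and 166 CPM in WT replicates 1 and 2. It thus split the libraries by replicate number, and the replicates of a genotype did not hold cells of one and the same animal. Together 4 Y-linked genes were at 243 and 182 CPM in Batf3-/- replicates 1 and 2, against 344 and 146 CPM in WT replicates 1 and 2. Both replicate 2 libraries therefore held Y-linked RNA as well as Xist. The titles give one code to both replicate 1 libraries and another to both replicate 2 libraries, without saying what the codes mark. The part of this split in the results was not tested. Values within each replicate number are therefore given beside the pooled ones.

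The replication program was expressed in both genotypes, and no member passed the test of a difference between them. Every member was detected in every library, from 152 counts upwards, and levels spanned 8.87 CPM (Gins3) to 518 CPM (Pcna). The 46 genes together summed to 4457 and 4019 CPM in Batf3-/- replicates 1 and 2, against 4207 and 4607 CPM in WT replicates 1 and 2. Batf3-/- replicate 1 lay between the WT libraries, so the groups overlapped. In bulk RNA, fewer cells in S phase and less of this RNA per cell cannot be told apart.

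**Figure D1:**
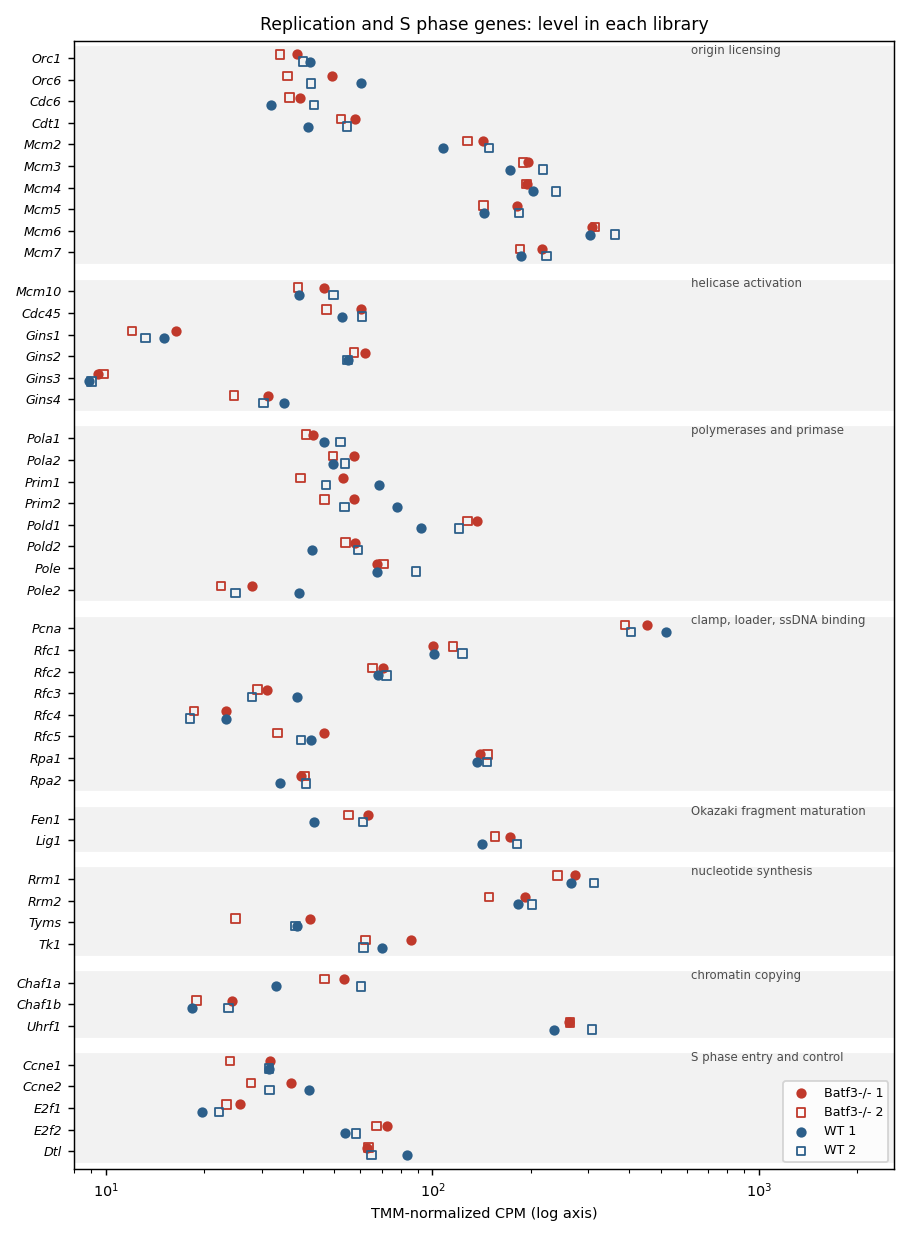
TMM-normalized CPM (log axis) of the 46 genes in each library, with Batf3-/- libraries in red above WT libraries in blue, replicate 1 filled and replicate 2 open, and shaded bands for the roles. For 37 of the 46 genes the 2 genotypes overlap, against 8035 of the 12135 tested genes. Pcna is the most abundant transcript.

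In edgeR's quasi-likelihood test across 12135 genes, 0 of the 46 passed an adjusted p of 0.05, and adjusted p-values ran from 0.958 to 0.994. At an unadjusted p under 0.05 the count was also 0, and it was 0 at the adjusted threshold in DESeq2 and limma-voom too. Over all tested genes 0.0824% passed as higher and 0.0494% as lower in Batf3-/- cells in edgeR, 0.173% and 0.0659% in DESeq2, and 0.0824% and 0.0412% in limma-voom. At an unadjusted p under 0.05 the shares were 3.4% higher and 1.4% lower. Of the 46, 19 had a log2 fold change above 0 and 27 below, with a median of -0.04, beside 48.4% above 0 and a median of -0.01 over all tested genes. Both Batf3-/- libraries lay above both WT libraries for 5 of the 46 genes, where 18.2% of all tested genes did so, and below them for 4, where 15.6% did.

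The data do limit how large a change could have been missed. Log2 fold changes (Batf3-/- minus WT) ran from -0.34 for Prim2 to 0.32 for Pold1 and E2f2, with standard errors of 0.183 to 0.246. The 95% intervals of the 46 genes, each taken alone, reached no lower than -0.82 (0.566-fold, Pole2) and no higher than 0.72 (1.65-fold, Pold1). A 2-fold change in either direction lay outside the interval of every member when all 4 libraries were used. Without Batf3-/- replicate 1 the intervals of 8 members reached past a 2-fold decrease, to -1.27 for Tyms, and without WT replicate 2 that of Pole2 did, at -1.04.

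**Figure D2:**
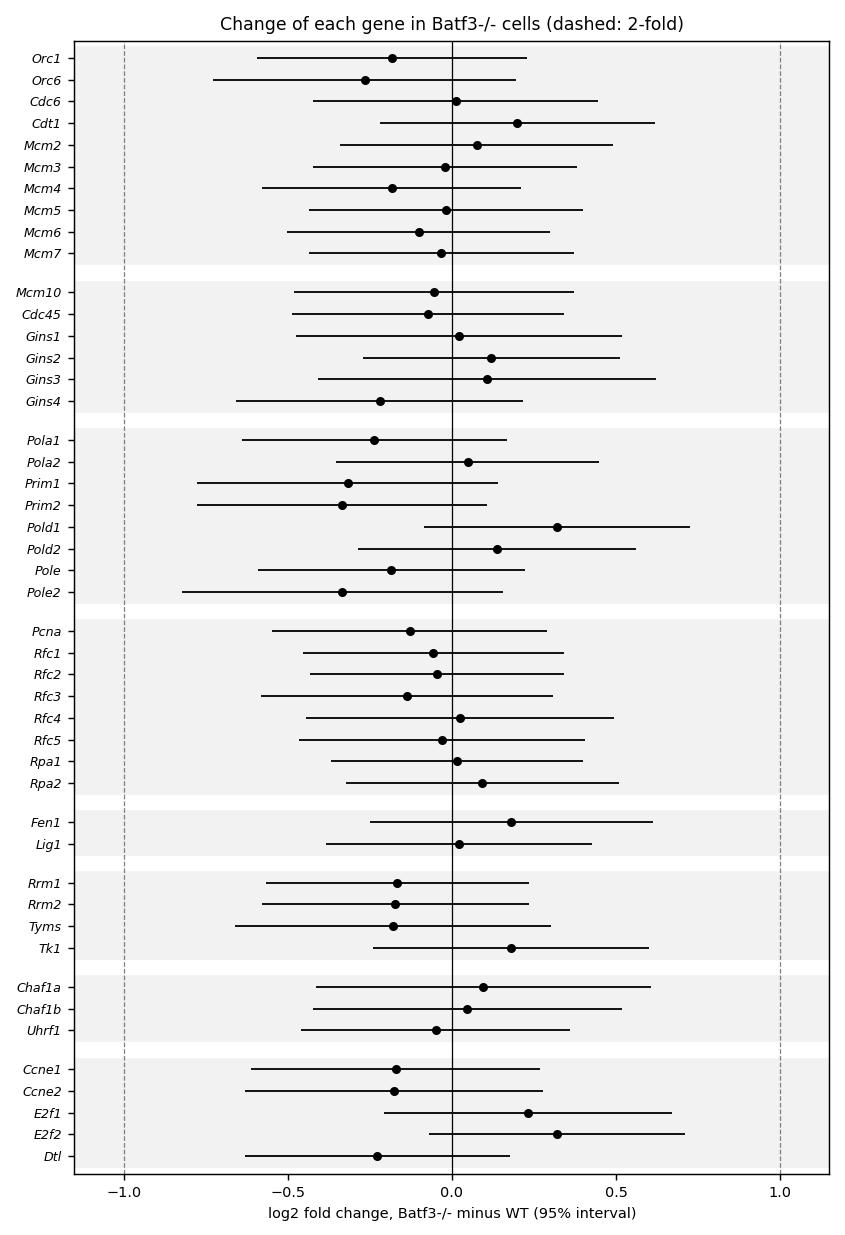
Log2 fold change of each gene, Batf3-/- minus WT, with its 95% interval from edgeR; dashed lines mark 2-fold changes. All 46 intervals include 0 and stay within -0.82 and 0.72.

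Of the 10 origin licensing genes 3 had a log2 fold change above 0 and 7 below, with a median of -0.03. Mcm6, a subunit of the MCM helicase ring, had 307 and 314 CPM in Batf3-/- cells, against 304 and 362 CPM in WT cells. Cdt1, the factor that brings the helicase to origins, had 58.1 and 52.4 CPM in Batf3-/- cells, against 41.6 and 54.7 CPM in WT cells. In both genes the genotypes overlapped, and for Cdt1 WT replicate 1 alone was low. Orc6, a subunit of the origin recognition complex, had 49.4 and 36.0 CPM in Batf3-/- cells, against 60.6 and 42.4 CPM in WT cells, and had the lowest log2 fold change of these genes at -0.27 (SE 0.221). Its values followed the replicate number more than the genotype, with replicate 1 higher in both.

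The other licensing genes lay between the extremes. Mcm4 had 195 and 194 CPM in Batf3-/- cells, against 203 and 239 CPM in WT cells, and Orc1, the largest ORC subunit, had 38.4 and 34.1 CPM in Batf3-/- cells, against 42.3 and 40.1 CPM in WT cells. These were the only licensing genes with no overlap between genotypes, and their log2 fold changes of -0.18 each (SE 0.189 and 0.196) did not pass. For Mcm2, Mcm3, Mcm5, Mcm7 and Cdc6 the log2 fold changes were between -0.03 and 0.08. In each of these 5 genes WT replicate 1 and WT replicate 2 lay on opposite sides of the Batf3-/- mean.

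Of the 6 helicase activation genes 3 were above 0 and 3 below, with a median of -0.02. Gins4, a subunit of the GINS complex, had 31.3 and 24.7 CPM in Batf3-/- cells, against 35.0 and 30.4 CPM in WT cells (log2 fold change -0.22, SE 0.209). Gins2, another subunit, had 62.0 and 57.5 CPM in Batf3-/- cells, against 55.0 and 55.0 CPM in WT cells (log2 fold change 0.12, SE 0.187). The genotypes overlapped for Gins4 and not for Gins2, whose exons share 67.3% of their bases with Gse1 on the opposite strand and whose count is uncertain for that reason. Cdc45, the helicase cofactor, had 60.4 and 47.4 CPM in Batf3-/- cells, against 52.7 and 60.8 CPM in WT cells. Mcm10, Gins1 and Gins3 had log2 fold changes of -0.05, 0.02 and 0.11, and Gins3 was the rarest of all 46 transcripts.

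The polymerase and primase genes held both ends of the range. Pold1, the catalytic subunit of the lagging-strand polymerase delta (chromosome 7, 44532746 to 44548849, GRCm38), had 137 and 128 CPM in Batf3-/- cells, against 91.9 and 120 CPM in WT cells. Batf3-/- libraries were both higher, but WT replicate 2 was close to them, and the log2 fold change of 0.32 (SE 0.193, unadjusted p = 0.114 in edgeR) did not pass. Prim2, the large primase subunit (chromosome 1, 33453810 to 33669795), had 57.5 and 46.7 CPM in Batf3-/- cells, against 78.0 and 53.8 CPM in WT cells, at a log2 fold change of -0.34 (SE 0.211, unadjusted p = 0.129 in edgeR). Its partner Prim1, which makes the primers, had 53.0 and 39.4 CPM in Batf3-/- cells, against 68.4 and 47.2 CPM in WT cells. Both primase subunits had WT replicate 1 well above the other 3 libraries, as did Pole2, a subunit of the leading-strand polymerase epsilon, with 28.1 and 22.5 CPM in Batf3-/- cells, against 39.1 and 24.9 CPM in WT cells.

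How far these genes depended on WT replicate 1 was measured by leaving it out. Log2 fold changes were then -0.05 for Prim2, 0.02 for Pole2 and 0.13 for Pold1, in fits with 1 WT library left. Without WT replicate 2 they were -0.58, -0.62 and 0.53, with adjusted p-values of 0.0613, 0.0648 and 0.0886 in edgeR, and again 1 WT library stood for the genotype; 2.43% of all genes passed as higher and 2.03% as lower in that fit. Pola1, the catalytic subunit of polymerase alpha, had 42.9 and 41.0 CPM in Batf3-/- cells, against 46.6 and 52.3 CPM in WT cells, and was the one gene of this group that lay lower without overlap (log2 fold change -0.24, SE 0.193). Pola2, Pold2 and Pole had log2 fold changes of 0.05, 0.14 and -0.18.

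Among the 8 clamp, clamp loader and single-strand binding genes 3 were above 0 and 5 below. Pcna, the sliding clamp (chromosome 2, 132249162 to 132253314), had 456 and 389 CPM in Batf3-/- cells, against 518 and 406 CPM in WT cells, a log2 fold change of -0.13 (SE 0.200). Rfc3, a loader subunit, had 31.1 and 29.1 CPM in Batf3-/- cells, against 38.4 and 28.0 CPM in WT cells. Rpa2, a subunit of the single-strand binding protein RPA, had 39.7 and 40.5 CPM in Batf3-/- cells, against 34.1 and 41.0 CPM in WT cells. Genotypes overlapped in all 8 genes of this group, and its log2 fold changes stayed between -0.14 and 0.09. The flap nuclease gene Fen1 had 63.3 and 55.3 CPM in Batf3-/- cells, against 43.3 and 61.3 CPM in WT cells, and the ligase gene Lig1 had 173 and 155 CPM in Batf3-/- cells, against 142 and 181 CPM in WT cells. The Batf3-/- libraries lay between the WT libraries for Lig1, the genotypes overlapped for Fen1 as well, and Fen1 exons share 78.8% of their bases with an opposite-strand gene, Gm10143.

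Of the 4 nucleotide synthesis genes 1 was above 0 and 3 below, with a median of -0.17. Rrm2, the S phase subunit of ribonucleotide reductase, had 192 and 149 CPM in Batf3-/- cells, against 182 and 202 CPM in WT cells. Tyms, which makes thymidylate, had 42.1 and 24.96 CPM in Batf3-/- cells, against 38.5 and 38.0 CPM in WT cells, and the salvage kinase gene Tk1 had 86.1 and 62.4 CPM in Batf3-/- cells, against 69.9 and 61.4 CPM in WT cells. Batf3-/- replicate 2 was the lowest library for Rrm1, Rrm2 and Tyms. The log2 fold changes of Rrm1, Rrm2, Tyms and Tk1 were -0.17, -0.17, -0.18 and 0.18, with standard errors of 0.192 to 0.230.

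Of the genes that rebuild chromatin behind the fork, Uhrf1, which recruits the maintenance DNA methyltransferase, had 262 and 264 CPM in Batf3-/- cells, against 236 and 308 CPM in WT cells. Chaf1a, the large subunit of the histone chaperone CAF-1, had 53.5 and 46.6 CPM in Batf3-/- cells, against 33.2 and 60.5 CPM in WT cells. The WT libraries enclosed the Batf3-/- libraries in both genes, and the Chaf1a gap between WT libraries gave the largest difference in the whole set between the log2 ratios within replicate 1 (0.69) and within replicate 2 (-0.38). Chaf1a exons share 52.5% of their bases with Ubxn6 on the opposite strand. The smaller CAF-1 subunit gene Chaf1b also had opposite signs, with 0.41 within replicate 1 and -0.32 within replicate 2. Its Batf3-/- libraries, at 24.4 and 18.9 CPM, were not enclosed by its WT libraries, at 18.3 and 23.7 CPM.

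Among regulators of S phase entry, the E2F genes of the member list, E2f1 and E2f2, lay higher in Batf3-/- cells without overlap. E2f2 (chromosome 4, 136172394 to 136196057) had 72.8 and 67.3 CPM in Batf3-/- cells, against 54.0 and 58.3 CPM in WT cells, at a log2 fold change of 0.32 (SE 0.187, unadjusted p = 0.103 in edgeR, the smallest of the 46). E2f1 had 25.7 and 23.4 CPM in Batf3-/- cells, against 19.7 and 22.2 CPM in WT cells, at 0.23 (SE 0.210). Neither passed the test, and with offsets that remove each library's trend on transcript GC content E2f2 had a log2 fold change of 0.14 and E2f1 one of -0.02, so the direction of E2f1 turned. The cyclin E genes Ccne1 and Ccne2 had log2 fold changes of -0.17 and -0.18 (SE 0.210 and 0.217).

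Dtl, a substrate receptor of the ubiquitin ligase that removes CDT1 in S phase, is the member closest to the knocked-out gene: its span begins 0.428 Mb beyond the end of Batf3 on chromosome 1 (191537356 to 191575544). It had 63.0 and 63.7 CPM in Batf3-/- cells, against 83.4 and 65.0 CPM in WT cells. The Batf3-/- libraries were both lower, by little in replicate 2, and the log2 fold change of -0.23 (SE 0.193) was -0.05 without WT replicate 1, -0.40 without WT replicate 2 (unadjusted p = 0.0353, adjusted p = 0.197 in edgeR) and -0.08 with GC offsets. It was -0.22 without Batf3-/- replicate 1 and -0.23 without Batf3-/- replicate 2. The 3 other members on chromosome 1, Mcm6, Prim2 and Mcm3, lie 62.7, 157 and 170 Mb away.

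The members did not behave alike in the 2 replicate numbers. Within replicate 1, 31 of 46 genes were higher in Batf3-/- cells, with a median log2 ratio of 0.13. Within replicate 2, 9 of 46 were higher, with a median of -0.20. Over all tested genes these medians were -0.01 and 0.00. In 24 of the 46 genes (52.2%) the ratio was positive within replicate 1 and negative within replicate 2, against 21.5% of all tested genes. Within both, 7 (15.2%) were higher and 13 (28.3%) lower, against 27.1% and 28% of all tested genes. The 7 were Gins2, Gins3, Pold1, Rpa1, Tk1, E2f1 and E2f2, for Rpa1 by less than 0.03 in each.

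**Figure D3:**
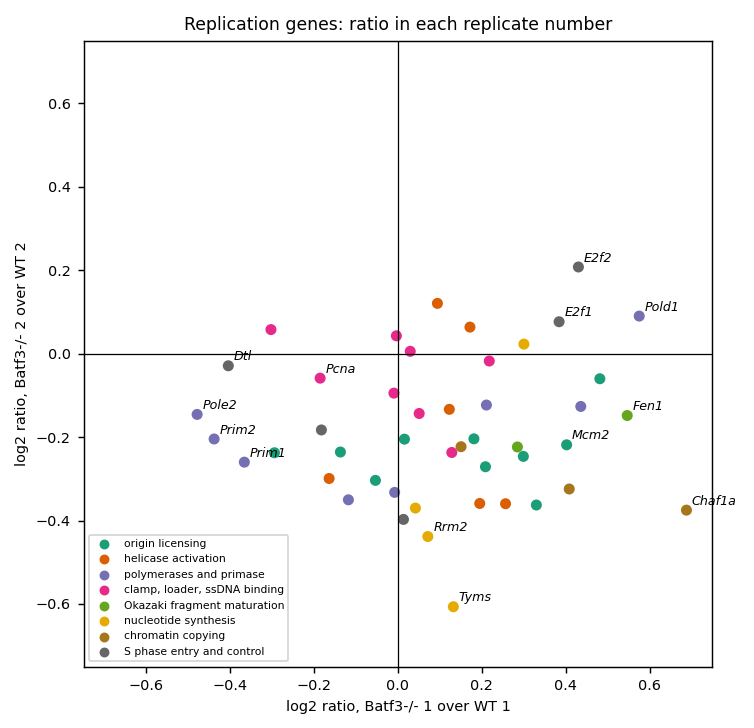
Log2 ratio of CPM for each of the 46 genes, Batf3-/- over WT, within replicate 1 (horizontal) and replicate 2 (vertical), coloured by role. The lower right quadrant holds 24 genes and the upper right 7, E2f1, E2f2 and Pold1 among them.

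The opposite signs came from opposite differences between replicates. In Batf3-/- cells replicate 2 was below replicate 1 for 38 of the 46 genes, with a median log2 difference of -0.18. In WT cells replicate 2 was above replicate 1 for 30 of the 46, with a median of 0.16. Without Batf3-/- replicate 1 the median log2 fold change of the 46 genes was -0.15 and 11 were above 0, and without Batf3-/- replicate 2 it was 0.07 and 28 were above 0. Without WT replicate 1 it was -0.09 with 15 above 0, and without WT replicate 2 it was 0.05 with 26 above 0. The direction of the group as a whole thus changed with the library left out.

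Transcript GC content moved with these ratios. The GC content of the longest transcript ranged from 36.3% (Ccne2) to 60.7% (Pold1) over the members. Of the 23 members with the lowest GC content 4 had a log2 fold change above 0, against 15 of the 23 with the highest. Across the 46 genes the ratio within replicate 1 followed GC content with Pearson's r = 0.77 and Spearman's rho = 0.83, and the ratio within replicate 2 with r = 0.25 and rho = 0.21; these points share libraries and are not independent. Over 12105 tested genes with a GC value r was 0.43 within replicate 1 and 0.18 within replicate 2, and 426 of 2843 genes with at most 45% GC were above 0, against 2598 of 3062 with over 55%. The log2 difference of WT replicate 2 minus WT replicate 1 followed GC content too. For it r was 0.58 over the members and 0.30 over these tested genes. With the GC offsets the log2 fold changes of the members lay between -0.27 (Prim2) and 0.18 (Rfc4), and that of Pold1 was -0.02. Of the 46, 13 were above 0, beside 47.8% of all tested genes, and 0 passed, beside 0.0412% of all genes in each direction. All 8 polymerase and primase genes were then below 0, with a median of -0.14.

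**Figure D4:**
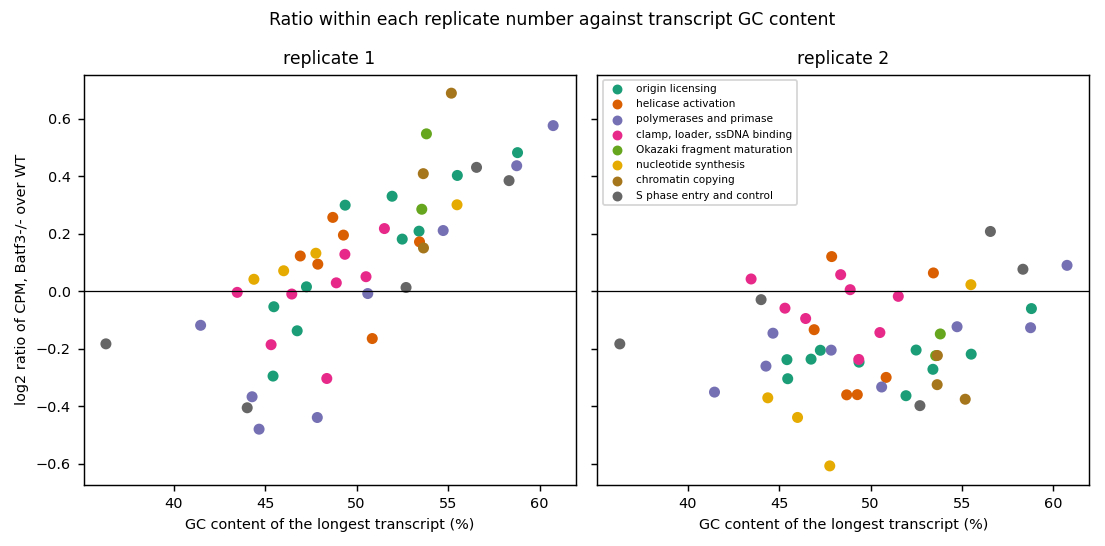
Log2 ratio of CPM, Batf3-/- over WT, within replicate 1 (left) and replicate 2 (right) against the GC content of each gene's longest transcript in percent, coloured by role. Ratios within replicate 1 run from -0.48 to 0.69 and are higher toward high GC content, and 9 of the 46 within replicate 2 are above 0.

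Levels can be compared between genes only per length, here as CPM per kb of the longest protein-coding transcript, averaged over the 4 libraries. Pcna stood at 291 ± 38.2 (SD, n = 4), above Rrm2, the next, at 82.6 ± 10.4. Uhrf1, Mcm6, Mcm7, Rrm1, Mcm3 and Mcm4 followed between 74.6 and 57.9, and neighbours in this order differed by less than 1 SD of one of them. Gins3 was lowest at 3.69 ± 0.171. With merged exons in place of the longest transcript Pcna stayed first and Gins3 last, and Mcm6, Rrm2 and Uhrf1 came next in that order.

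Subunits of one complex were not at one level. The helicase genes Mcm2 to Mcm7 lay within 1.89-fold of each other, from 39.1 (Mcm2) to 73.9 (Mcm6) CPM per kb, and Mcm6 exceeded Mcm2 in 4 of 4 libraries (3.64-fold with merged exons). The 4 GINS genes spread over 6.09-fold, from Gins3 to Gins4 at 22.5 CPM per kb. In the polymerase alpha and primase complex Pola1 stood at 8.55 and Prim1 at 32.9 CPM per kb, a ratio of 4.17 and 3.25 in Batf3-/- libraries and of 4.96 and 3.05 in WT libraries. Pold1 and Pold2 of polymerase delta differed by 1.06-fold, less than their spread, and the 5 RFC genes by 1.74-fold, an order that turned round with merged exons (0.799).

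**Figure D5:**
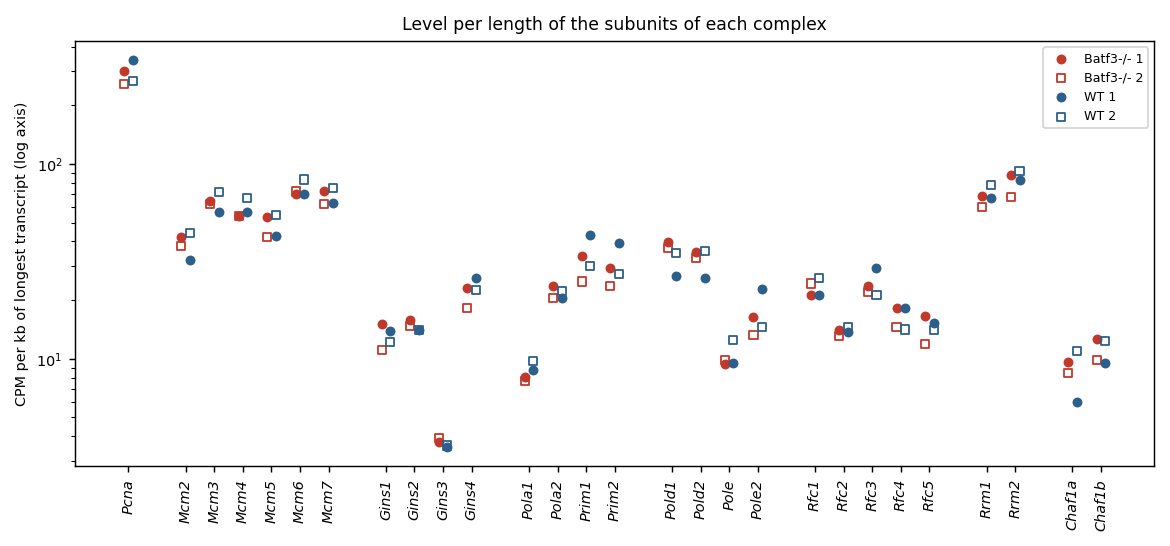
CPM per kb of the longest transcript (log axis) for subunits of each complex, with Batf3-/- libraries in red left of WT libraries in blue. Pcna stands above 250 in every library and Gins3 below 4, and the highest value of an Mcm gene is 83.2.

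Members with and without the E2F letters had like changes, given here without a test. The 16 genes with the letters had a median log2 fold change of -0.03, with 6 above 0, and the 22 with a window but without the letters had a median of -0.01, with 11 above 0. Median transcript GC content was 50.7% and 49.3% in these sets.

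Further genes of the pathway gave the same count of calls. Of 14 other initiation genes 3 were above 0 and 11 below (median log2 fold change -0.18), of 18 other fork genes 6 and 12 (-0.09), of 25 other nucleotide genes 12 and 13 (0.00), of 10 other chromatin copying genes 1 and 9 (-0.11), and of 24 tested RB, cyclin and CDK genes 12 and 12 (0.00). With all 4 libraries 0 of these passed the adjusted threshold in edgeR, where the background is the one given above. The smallest p belonged to Rnaseh2c, a subunit of the nuclease that removes RNA from DNA, with 24.7 and 22.8 CPM in Batf3-/- cells, against 15.4 and 16.9 CPM in WT cells (log2 fold change 0.56, adjusted p = 0.855). Pold4, a small subunit of polymerase delta, had 105 and 125 CPM in Batf3-/- cells, against 92.1 and 78.2 CPM in WT cells. Hells, a chromatin remodeller, had 75.7 and 73.7 CPM in Batf3-/- cells, against 102 and 93.2 CPM in WT cells. These 3 had unadjusted p-values of 0.017, 0.0351 and 0.0469 in edgeR.

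Other genes were named from the same lists, and their unadjusted p-values in edgeR were larger. The pocket protein gene Rbl1, a relative of RB, had 57.3 and 55.3 CPM in Batf3-/- cells, against 84.5 and 64.4 CPM in WT cells. The cyclin gene Ccnd3 had 455 and 517 CPM in Batf3-/- cells, against 329 and 420 CPM in WT cells. Log2 fold changes were -0.40 for Rbl1 and 0.38 for Ccnd3, -0.30 for Orc3 and -0.38 for Orc4 of the origin recognition complex, -0.37 for Rrm2b and -0.27 for Dck of nucleotide supply, and -0.28 for Rbbp4 of CAF-1. None of these reached an unadjusted p of 0.05 in edgeR.

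Mitosis genes, which act later in the same cycle, were set beside the replication genes. Of 30 mitosis genes 27 were below 0, with a median log2 fold change of -0.25, a median of -0.31 within replicate 1 and of -0.18 within replicate 2. Both Batf3-/- libraries lay below both WT libraries for 15 of the 30, where 15.6% of all tested genes did so. Together they summed to 4620 and 4467 CPM in Batf3-/- cells, against 5538 and 5181 CPM in WT cells. With all 4 libraries none passed in edgeR; Nusap1 and Birc5 had the smallest unadjusted p-values, 0.0417 and 0.048, at log2 fold changes of -0.43 and -0.45. The median transcript GC content of these genes was 46.4%, against 49.4% for the replication genes, and with GC offsets the mitosis median was -0.12, with 27 of 30 still below 0, and that of the replication genes -0.04. The mitosis median was -0.27 without Batf3-/- replicate 1, -0.16 without Batf3-/- replicate 2, -0.11 without WT replicate 1 and -0.32 without WT replicate 2. Nusap1 and Mad2l1, a checkpoint gene named after its value was seen, had log2 fold changes of -0.61 and -0.65 without WT replicate 2. In that fit 1 WT library stood for the genotype. The difference between the lists was not tested.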

How the data were processed

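RNA from 4 libraries was measured by polyadenylated RNA sequencing with a stranded kit and 75-base single-end reads, per the labels' protocols. The authors deposited RSEM expected counts per gene, which divide reads shared by several loci; STAR 2.5.0, RSEM 1.2.25 and build GRCm38 are named in the submitters' processing notes. Neither the annotation nor the strand setting of the counting is given in the sources used here. Hence the 16 members whose exons overlap another gene and the 10 with fractional counts (Pcna, Mcm7, Gins2, Rfc2, Rfc4, Rfc5, Lig1, Tk1, Chaf1a and Ccne2) are uncertain. The 92 spike-in rows were 0 and were left out.

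Genotype came from the labels and replicate numbers from the titles. Expected counts were rounded, filtered (filterByExpr, minimum count 10, minimum total 15), TMM-normalized and tested in R 4.3.3 with edgeR 4.0.16 (glmQLFit with legacy=FALSE, robust, glmQLFTest, genotype only, two-sided), with Benjamini-Hochberg adjustment over 12135 genes. Printed counts and CPM use the deposited values, and within-replicate ratios are differences of log2 CPM (prior count 0.5). Replicates differed beyond sampling noise (chi-square per degree of freedom 22.8 in Batf3-/- and 63.0 in WT). The pipeline was tested on simulated data. Positions, transcript lengths and GC content came from GENCODE M21 (GRCm38), matched by gene ID, and promoters from RefSeq.

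Per-library values are given, by rule, for the member of each role with the smallest p, the highest or lowest log2 fold change or the highest level per kb; from each other list the 2 genes with the smallest p are named. Other values were picked once known. The members and gene lists were chosen with earlier results of these data known. B cell markers are not reported here.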

Additional observations from a re-analysis of the deposited data

How the results depend on the processing

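The count of members past the threshold was 0 in the main analysis and in all 14 other settings: scaling by upper quartiles or by DESeq2 size factors, all genes kept, genes at 1 CPM in 2 libraries kept, DESeq2 1.42.0, limma-voom (limma 3.58.1), legacy=TRUE, each library left out, the replicate block, GC offsets, and both together. The smallest adjusted p of a member in edgeR was 0.0613, without WT replicate 2, where 9 members reached an unadjusted p under 0.05 beside 21.0% of all tested genes. Over all genes 10 were higher and 6 lower. The higher count was 21 in DESeq2 and 5 with GC offsets. Leaving out 1 library gave 11 to 301 higher and 7 to 252 lower genes, 11 to 28 members above 0 and a median of the members between -0.15 and 0.066; a group with 1 library left was assumed to vary like the other.

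With the replicate block 81 genes were higher and 31 lower, and with the block and GC offsets 55 and 34, with 0 members among them. The deviations of same-numbered libraries correlated at 0.105 over all tested genes and 0.40 over the members. A correlation leaves out the mean shift. Over the members the median log2 difference of replicate 2 minus replicate 1 was -0.18 in Batf3-/- cells and 0.16 in WT cells. The titles also share a code within each number and Xist splits the libraries the same way. The labels do not say that the codes mark a shared batch or litter, and there are only 2 numbers, so the pairing was not used. The block fit rests on 1 residual degree of freedom. Upper-quartile scaling put 22 members above 0, in place of 19. The sign of 12 members changed with GC offsets, and of 10 to 16 with a library left out. The causes were not tested. The summed level of the members overlapped between genotypes with plain CPM and with DESeq2 size factors too.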
